A study of Mus musculus with 4 samples.

Results

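The genes described here code for 3 CCN matricellular proteins (Ccn1, Ccn2 and Ccn3), the ligand insulin-like growth factor 1 (Igf1), its receptor (Igf1r), 4 IGF-binding proteins (Igfbp2, Igfbp3, Igfbp4 and Igfbp5) and the related Igfbpl1. These 10 genes, of 29224 in the deposited tables, were selected by name, and they were proposed with the differences between the same libraries in view. Their counts, CPM and FPKM in Ezh2 f/f and Ezh2 cKO are therefore given as a description, with no test. All 10 passed the filter on low counts that left 16793 genes for testing. RNA was sequenced from cerebral cortex cells of mice at postnatal day 5 (P5). They were isolated as astrocytes on magnetic beads (Anti-GLAST, ACSA-1) that bind the glutamate transporter GLAST at the cell surface. The Ezh2 f/f group (2 libraries) carried loxP-flanked Ezh2 alleles. The Ezh2 cKO group (2 libraries) carried the same alleles together with Aldh1l1-icre, a Cre recombinase driven by the promoter of an astrocyte gene. No drug or other treatment is given for either group, the study names C57BL/6J and ICR mice without saying which strain each library came from, and whether animals were pooled is not stated. EZH2 is the catalytic subunit of Polycomb repressive complex 2, which methylates histone H3 at lysine 27.

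Insulin-like growth factors are secreted peptides that bind the receptor tyrosine kinase IGF1R and, through IRS adaptors, activate the PI3K and AKT kinases. IGF-binding proteins hold the ligands outside the cell, prolong their lifetime and restrict or deliver them, until proteases cleave the binding protein. CCN proteins share an IGFBP-like domain with them, bind integrins, heparan sulphate proteoglycans and LRP receptors, and Ccn1 and Ccn2 are standard target genes of the co-activators YAP and TAZ with TEAD factors. In the brain Igf1 supports neuronal and glial growth, Ccn2 is a marker of subplate and deep-layer cells, Igf1 is abundant in developmental microglia, and Igfbpl1 is a marker of newborn neurons.

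Total counts were 17522152 and 16273308 in Ezh2 f/f, against 17330230 and 16678309 in Ezh2 cKO, and 3 counts correspond to between 0.171 and 0.184 CPM (counts scaled to library size with TMM factors). The targeted gene Ezh2 had 434 and 327 counts in Ezh2 f/f, against 211 and 164 in Ezh2 cKO (log2 fold change -1.11, standard error 0.16, edgeR adjusted p = 3.26e-05). Of 12 astrocyte markers, 10 rose in Ezh2 cKO and 2, Aldh1l1 and Sox9, did not pass the test; their summed FPKM was 128 and 129 in Ezh2 f/f, against 594 and 534 in Ezh2 cKO, and none was at or under 3 counts in a whole group. Other cell types were measured in the same libraries. The 10 neuron markers summed to 2237 and 2318 FPKM in Ezh2 f/f, against 2048 and 2063 in Ezh2 cKO. Of these, 9 were higher and 1, Tubb3, was lower, at 1859 and 1897 FPKM against 1223 and 1207. The member values therefore cannot be assigned to astrocytes alone. The 6 choroid plexus markers summed to 311 and 611 FPKM in Ezh2 f/f, against 1.04 and 1.94 in Ezh2 cKO. Ttr alone held 304 and 601 FPKM of the Ezh2 f/f sums. Of 5 tested, 4 fell and 1, Kl, rose. In such bulk samples fewer cells of a type and less RNA per cell cannot be told apart. The labels do not say that the libraries of a group came from separate animals, so p-values measure the spread between these libraries, which may be technical.

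Promoter sequences are shown for the members that were higher in Ezh2 cKO and have one in the table used (Igf1 and Igfbp5), and for 3 that were lower (Ccn1, Igfbp2 and Igfbp3), to let the density of CpG dinucleotides be compared. Each is the 250 bases before the annotated start in RefSeq on GRCm38.p6, written 5′ to 3′ on the gene's own strand with every CpG in capitals. They lie at chr10:87860861-87861110 (plus strand), chr1:72874866-72875115 (minus strand), chr3:145649986-145650235 (minus strand), chr1:72824230-72824479 (plus strand, the first of its 2 windows) and chr11:7213924-7214173 (minus strand).
Igf1: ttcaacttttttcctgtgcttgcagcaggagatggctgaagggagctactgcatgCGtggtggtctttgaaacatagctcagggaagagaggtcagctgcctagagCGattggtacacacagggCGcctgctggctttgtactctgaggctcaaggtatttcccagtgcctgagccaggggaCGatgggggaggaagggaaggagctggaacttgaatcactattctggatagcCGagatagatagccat
Igfbp5: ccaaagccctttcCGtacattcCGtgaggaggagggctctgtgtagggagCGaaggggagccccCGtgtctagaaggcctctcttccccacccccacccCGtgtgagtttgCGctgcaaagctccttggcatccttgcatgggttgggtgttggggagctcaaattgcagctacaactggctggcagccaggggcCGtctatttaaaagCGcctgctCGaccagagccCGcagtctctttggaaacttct
Ccn1: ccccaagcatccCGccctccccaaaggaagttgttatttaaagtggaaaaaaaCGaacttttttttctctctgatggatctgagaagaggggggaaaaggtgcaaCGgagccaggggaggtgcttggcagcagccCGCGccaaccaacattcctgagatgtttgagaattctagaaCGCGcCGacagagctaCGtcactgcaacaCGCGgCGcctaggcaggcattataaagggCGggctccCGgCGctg
Igfbp2: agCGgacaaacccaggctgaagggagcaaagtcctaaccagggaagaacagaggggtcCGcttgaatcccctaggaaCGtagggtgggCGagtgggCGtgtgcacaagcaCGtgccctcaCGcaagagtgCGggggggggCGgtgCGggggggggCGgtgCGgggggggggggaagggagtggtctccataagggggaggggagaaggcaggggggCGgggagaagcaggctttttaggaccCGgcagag
Igfbp3: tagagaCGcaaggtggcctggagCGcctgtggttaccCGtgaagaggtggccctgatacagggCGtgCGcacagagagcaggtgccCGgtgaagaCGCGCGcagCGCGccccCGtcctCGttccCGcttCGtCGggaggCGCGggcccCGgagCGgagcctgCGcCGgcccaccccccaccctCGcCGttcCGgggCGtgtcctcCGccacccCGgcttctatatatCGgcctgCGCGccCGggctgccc

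Of the 10 genes, 7 matched a RefSeq promoter, with 8 windows; Ccn2, Ccn3 and Igfbpl1 had no entry. Igf1 held 5 CpG dinucleotides and Igfbp5 held 10, against a median of 6 over all 32851 windows of the same length. Both genes had more reads in Ezh2 cKO. The 5 matched genes with fewer reads in Ezh2 cKO held more in every window: Igfbp2 held 14 and 11, Ccn1 15, Igfbp4 22, Igfbp3 32 and Igf1r 42. The Igf1r window stood above 99.1% of all windows in CpG count and the Igfbp3 window above 95.4%. The ordering was noticed after the values had been seen, covers 7 genes, and was not tested. Its closest values were 10 CpG in Igfbp5 and 11 in the second Igfbp2 window. Ccn2, Ccn3 and Igfbpl1 have no window, and the members were chosen with this contrast in view, so nothing is read from it. The TEAD core GGAATG, searched on both strands (CATTCC on the other), occurred once in Ccn1, starting 103 bases before the start site, and once in Igfbp5, starting 233 bases before it; 12.6% of all windows hold it. The letters TATAAA, or TTTATA on the other strand, occurred 25 bases before the start of Ccn1 and 28 bases before that of Igfbp4, and in 12.4% of all windows. A match in letters is a description and not a measured binding site.

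All 10 genes had groups that did not overlap in CPM, with 4 higher and 6 lower in Ezh2 cKO. The same was true of 84.3% of all genes tested, and the choice of the members used this contrast, so nothing is read from the count. The differences ranged from a log2 fold change of -3.31 to 3.33, and 5 of the 10 were at least 2-fold, a size that 33.8% of all genes tested reached.

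**Figure D1:**
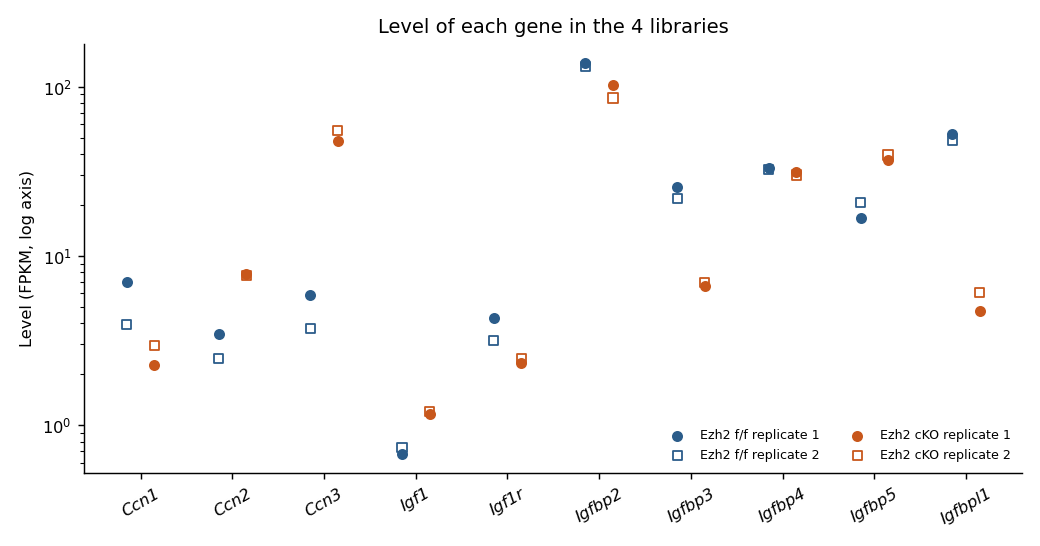
Level of the 10 genes in each library as FPKM (counts scaled to gene length and library size, log axis), with Ezh2 f/f in blue, Ezh2 cKO in orange, filled circles for replicate 1 and open squares for replicate 2. Ccn3 lies at 3.73 to 5.85 in Ezh2 f/f and 47.8 to 54.7 in Ezh2 cKO, while Igfbpl1 lies at 48.2 to 52.8 and 4.74 to 6.05.

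Among the 3 CCN members, Ccn3 (formerly Nov) had the largest log2 fold change. Its counts were 294 and 174 in Ezh2 f/f, against 2376 and 2619 in Ezh2 cKO. Both Ezh2 cKO libraries were far above both Ezh2 f/f libraries, at 143 ± 11.6 CPM against 14.1 ± 4.34 (SD, n = 2 each), 10.1-fold higher (log2 fold change 3.33, standard error 0.16). By mean FPKM, the gene moved from position 7350 of all genes in Ezh2 f/f to position 1070 in Ezh2 cKO. Ccn3 (ENSMUSG00000037362) is listed on chromosome 15 from 54609098 to 54617435, plus strand.

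Ccn2 (formerly Ctgf), a connective tissue growth factor that binds integrins and the IGF system, had 174 and 115 counts in Ezh2 f/f, against 390 and 366 in Ezh2 cKO. The Ezh2 cKO libraries were above both Ezh2 f/f libraries, at 21.6 ± 0.704 CPM against 8.75 ± 2.03 (SD, n = 2 each), 2.46-fold higher (log2 fold change 1.30, standard error 0.17). The subplate list, which Ccn2 is usually grouped with, had 3 of 6 genes higher and 0 lower, with a summed FPKM of 21.9 and 25.1 in Ezh2 f/f, against 48.9 and 41.3 in Ezh2 cKO; no marker of it was at or under 3 counts in a group, and its part in the Ccn2 difference was not tested. In that list Cplx3 rose from a mean of 0.740 FPKM in Ezh2 f/f to 16.8 in Ezh2 cKO. The other higher markers were Moxd1, from 0.468 to 2.01, and Tmem163, from 6.15 to 9.77. The 3 markers that did not pass the test were Nr4a2 (log2 fold change 0.36), Nxph4 (-0.32) and Lpar1 (-0.19). Ccn2 overlaps a lncRNA on the other strand, Gm15270, which had at most 10 counts in a library, and since the use of strand is not given in the sources used here the reads of the pair cannot be told apart. Ccn2 (ENSMUSG00000019997) is listed on chromosome 10 from 24471340 to 24474581, plus strand.

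Ccn1 (formerly Cyr61), an immediate early gene whose protein binds integrins, was lower. It had 248 and 129 counts in Ezh2 f/f, against 79 and 100 in Ezh2 cKO. The groups did not overlap, but the Ezh2 f/f libraries differed from each other more than the Ezh2 cKO libraries did. The level was 11.4 ± 4.46 CPM in Ezh2 f/f, against 5.13 ± 0.913 in Ezh2 cKO (SD, n = 2 each), 2.22-fold lower (log2 fold change -1.15, standard error 0.25). Without Ezh2 f/f replicate 1 the log2 fold change was -0.68, and without Ezh2 f/f replicate 2 it was -1.52. Ccn1 (ENSMUSG00000028195) is listed on chromosome 3 from 145352731 to 145355736, minus strand.

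The 3 CCN genes together made up most of the family in both groups. By FPKM the highest was Ccn1 in both Ezh2 f/f libraries and Ccn3 in both Ezh2 cKO libraries. In Ezh2 f/f these genes were close and their FPKM ranges overlapped. By counts, which are not scaled to length, Ccn3 was above Ccn1 there, at 294 and 174 against 248 and 129. Of the summed FPKM of the 6 CCN genes, which was 17.1 and 10.6 in Ezh2 f/f, against 58.7 and 66.0 in Ezh2 cKO, Ccn1 took 41.1% and 37.0% in Ezh2 f/f, against 3.85% and 4.50% in Ezh2 cKO. Ccn3 took 34.3% and 35.1% in Ezh2 f/f, against 81.5% and 82.9% in Ezh2 cKO. Of the 3 CCN genes that are not members, Ccn4 and Ccn5 had at most 12 counts in a library and were not tested. Ccn6, with 12 and 6 counts in Ezh2 f/f, against 11 and 10 in Ezh2 cKO, did not pass the test (log2 fold change 0.13, standard error 0.52, edgeR adjusted p = 0.833).

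The CCN genes and Igf1r also differed between the 2 Ezh2 f/f libraries. Ezh2 f/f replicate 1 exceeded replicate 2 in CPM by 1.77-fold for Ccn1, 1.55-fold for Ccn3, 1.39-fold for Ccn2 and 1.34-fold for Igf1r. Over all genes tested the median ratio was 0.999, and 49.6% had a higher CPM in replicate 1. Of 12 immediate early genes, which cells switch on within minutes of a stimulus, all 12 had a higher CPM in Ezh2 f/f replicate 1, with a median ratio of 1.66. Fos had 109 and 33 counts in these libraries and Egr1 had 432 and 168. The immediate early genes summed to 57.3 and 36.5 FPKM in Ezh2 f/f, against 77.6 and 76.0 in Ezh2 cKO, with 6 of 12 higher and 2 lower in Ezh2 cKO and none at or under 3 counts in a group. In the Ezh2 cKO pair, the CPM ratio of replicate 1 over replicate 2 was 0.776 for Ccn1, 1.05 for Ccn2 and 0.892 for Ccn3. There 8 of the 12 immediate early genes were higher in replicate 1, with a median ratio of 1.09. The part of the immediate early genes in the CCN values was not tested.

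**Figure D2:**
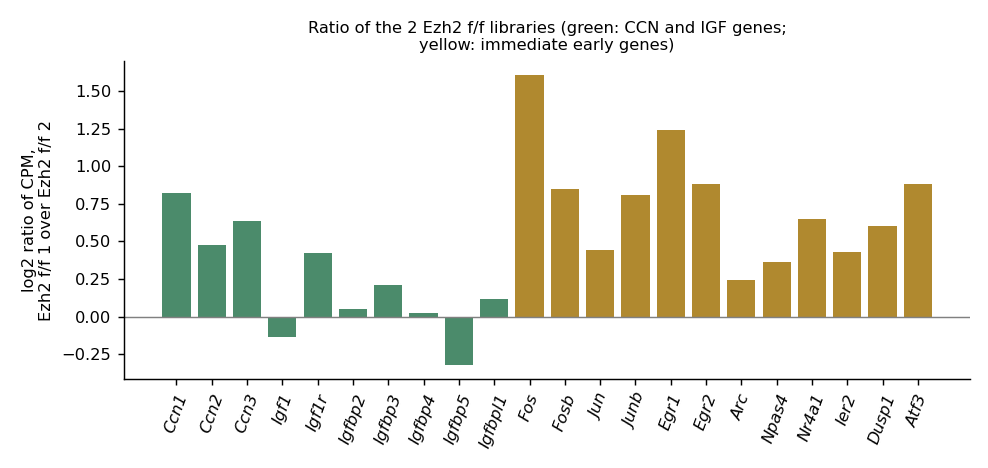
Log2 ratio of CPM in Ezh2 f/f replicate 1 over Ezh2 f/f replicate 2, one bar per gene, for the 10 CCN and IGF genes (green) and 12 immediate early genes (yellow). All 12 immediate early genes and 8 of the 10 CCN and IGF genes lie above 0, with Igf1 and Igfbp5 below. Of all genes tested, 49.6% had a higher CPM in replicate 1.

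Igf1, the ligand, was the least expressed of the 10 genes per length in both groups. It had 118 and 119 counts in Ezh2 f/f, against 200 and 199 in Ezh2 cKO. The replicates of each group nearly coincided and the Ezh2 cKO libraries were higher, at 11.4 ± 0.10 CPM against 7.24 ± 0.470 (SD, n = 2 each), 1.58-fold (log2 fold change 0.66, standard error 0.17). In FPKM the libraries stood at 0.680 and 0.738 in Ezh2 f/f, against 1.17 and 1.20 in Ezh2 cKO. All 10 microglia markers were higher in Ezh2 cKO, with a summed FPKM of 60.0 and 59.5 in Ezh2 f/f, against 168 and 147 in Ezh2 cKO. None was at or under 3 counts in a group, and their part in the Igf1 difference was not tested. Such a rise was not particular to microglia: 6 of 6 oligodendrocyte precursor and 7 of 7 oligodendrocyte markers were higher too. Of 12 newborn neuron markers 11 were lower. Igf1 (ENSMUSG00000020053) is listed on chromosome 10 from 87694127 to 87772904, plus strand, and overlaps the lncRNA Igf1os on the other strand, which had at most 2 counts.

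The other ligand, Igf2, was lower. It had 129 and 96 counts in Ezh2 f/f, against 59 and 72 in Ezh2 cKO (log2 fold change -0.87, standard error 0.23, edgeR adjusted p = 0.00376). The call was lost without Ezh2 cKO replicate 1 (adjusted p = 0.0540, with a range of 0.000132 to 0.0540 over the alternatives). The summed FPKM of the pair was 1.97 and 1.77 in Ezh2 f/f, against 1.76 and 1.96 in Ezh2 cKO, so the groups overlapped, while Igf1 made up 34.6% and 41.7% of it in Ezh2 f/f, against 66.2% and 61.5% in Ezh2 cKO. Meningeal fibroblasts and choroid plexus are known sources of Igf2 in brain. Of 8 fibroblast markers 2 were higher and 4 lower, with a summed FPKM of 50.8 and 47.1 in Ezh2 f/f, against 49.9 and 46.4 in Ezh2 cKO, and of 5 tested choroid plexus markers 1 was higher and 4 lower. No fibroblast marker was at or under 3 counts in a group, while the choroid plexus marker Kl was so in Ezh2 f/f and Otx2 in Ezh2 cKO, and the part of both lists in the Igf2 difference was not tested.

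Igf1r, the receptor of both ligands, was lower. It had 1259 and 862 counts in Ezh2 f/f, against 677 and 692 in Ezh2 cKO. The Ezh2 cKO libraries lay close together below both Ezh2 f/f libraries, at 39.2 ± 1.09 CPM against 64.3 ± 13.3 (SD, n = 2 each), 1.64-fold lower (log2 fold change -0.72, standard error 0.12). Without Ezh2 f/f replicate 1, the higher of the pair, the log2 fold change was -0.49. Igf1r (ENSMUSG00000005533) is listed on chromosome 7 from 67602575 to 67883416, plus strand. Of the other receptors, Igf2r, which clears IGF2 from the surface, was lower (log2 fold change -0.51, standard error 0.10, edgeR adjusted p = 0.000563), as was the insulin receptor Insr (-0.41, standard error 0.11, edgeR adjusted p = 0.00368). The Insr call was lost in limma on log2(FPKM + 1) (adjusted p = 0.0925, with a range of 0.00127 to 0.0925 over the alternatives) and without Ezh2 cKO replicate 1 (adjusted p = 0.0550). The insulin receptor-related gene Insrr, with 17 to 20 counts, did not pass the test (log2 fold change -0.02, standard error 0.38, edgeR adjusted p = 0.976), and the insulin gene Ins2 had at most 2 counts.

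**Figure D3:**
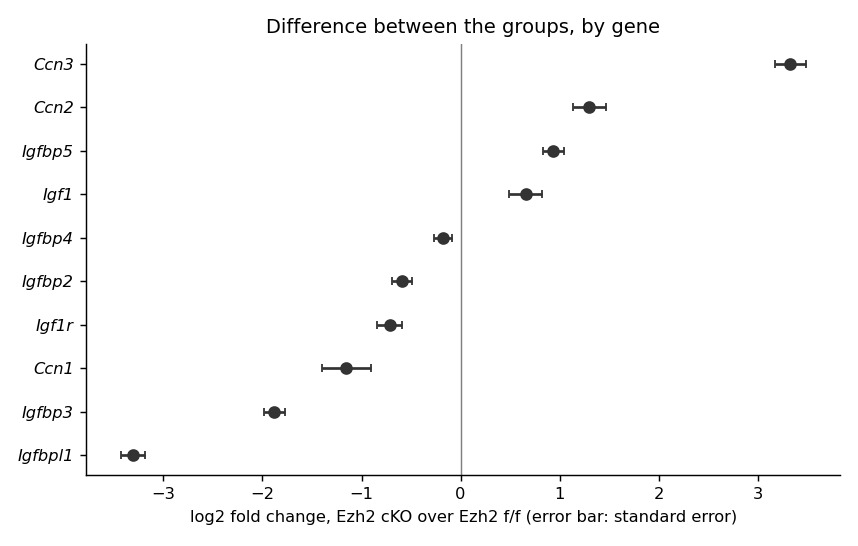
Log2 fold change of Ezh2 cKO over Ezh2 f/f from edgeR (horizontal axis) for each of the 10 genes, with the standard error as the bar. The values run from -3.31 for Igfbpl1 to 3.33 for Ccn3, with Igfbp4 nearest to 0 at -0.18.

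Among the binding proteins, Igfbpl1 had the largest difference. It had 3005 and 2549 counts in Ezh2 f/f, against 267 and 328 in Ezh2 cKO. Both Ezh2 cKO libraries lay far below both Ezh2 f/f libraries, at 17.0 ± 2.68 CPM against 169 ± 9.70 (SD, n = 2 each), 9.92-fold lower (log2 fold change -3.31, standard error 0.12). By mean FPKM the gene went from position 1125 to position 7200 of all genes. Of 12 newborn neuron markers, 11 fell and 0 rose in Ezh2 cKO, with Neurod1 not passing the test; the list summed to 2978 and 2822 FPKM in Ezh2 f/f, against 1077 and 1123 in Ezh2 cKO, none was at or under 3 counts in a group, and its part in the Igfbpl1 difference was not tested. Of that sum, Tubb2b alone made up 2473 and 2372 FPKM in Ezh2 f/f, against 909 and 942 in Ezh2 cKO. The median log2 fold change of that list was -1.62, and its lowest member was at -3.46. Igfbpl1 (ENSMUSG00000035551) is listed on chromosome 4 from 45809468 to 45826923, minus strand.

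Igfbp3, which carries most circulating IGF in a complex with the acid-labile subunit, was also lower. It had 1395 and 1110 counts in Ezh2 f/f, against 359 and 364 in Ezh2 cKO. The groups were well apart, at 76.2 ± 7.80 CPM in Ezh2 f/f, against 20.7 ± 0.457 in Ezh2 cKO (SD, n = 2 each), 3.68-fold lower (log2 fold change -1.88, standard error 0.11). The acid-labile subunit gene Igfals fell from 54 and 43 counts in Ezh2 f/f to 9 and 1 in Ezh2 cKO (log2 fold change -3.34, standard error 0.52, edgeR adjusted p = 5.82e-05), a value that was -5.50 without Ezh2 cKO replicate 1. On the opposite strand, 3539 bases from Igfbp3 with no gene of the tables between, Igfbp1 had 4 and 8 counts in Ezh2 f/f, against 1 and 0 in Ezh2 cKO and was too low to test. Igfbp3 (ENSMUSG00000020427) is listed on chromosome 11 from 7156086 to 7163923, minus strand.

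Igfbp2 and Igfbp5 are neighbours that point towards each other on chromosome 1 and differed in opposite directions. Igfbp2 (ENSMUSG00000039323) is listed from 72863662 to 72891633 on the plus strand and Igfbp5 (ENSMUSG00000026185) from 72897091 to 72914043 on the minus strand, with 5457 bases and no gene of the tables between them. Igfbp2, the main IGF-binding protein of developing brain and the highest of the members by FPKM in both groups, had 4427 and 3935 counts in Ezh2 f/f, against 3280 and 2636 in Ezh2 cKO. Both Ezh2 cKO libraries were below both Ezh2 f/f libraries, at 169 ± 24.0 CPM against 255 ± 6.20 (SD, n = 2 each), 1.51-fold lower (log2 fold change -0.59, standard error 0.10). Igfbp5, which binds the extracellular matrix, had 1765 and 2025 counts in Ezh2 f/f, against 3809 and 3947 in Ezh2 cKO. Here both Ezh2 cKO libraries were above, at 222 ± 8.32 CPM against 116 ± 18.1 (SD, n = 2 each), 1.91-fold higher (log2 fold change 0.94, standard error 0.11). Choroid plexus is another place where Igfbp2 is known to be expressed, and the part of the choroid plexus markers given above in the Igfbp2 difference was not tested.

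Igfbp4, a binding protein that generally inhibits IGF action, had the smallest difference. It had 2568 and 2323 counts in Ezh2 f/f, against 2400 and 2212 in Ezh2 cKO. The 4 libraries were close, at 149 ± 1.78 CPM in Ezh2 f/f, against 132 ± 5.98 in Ezh2 cKO (SD, n = 2 each), 1.13-fold lower (log2 fold change -0.18, standard error 0.09). Igfbp4 (ENSMUSG00000017493) is listed on chromosome 11 from 98932070 to 98945218, plus strand. Of the binding proteins that are not members, Igfbp6, which prefers IGF2, rose from 128 and 87 counts to 237 and 193 (log2 fold change 0.91, standard error 0.19, edgeR adjusted p = 0.000820). Igfbp7, a low-affinity relative that is high in blood vessels, rose from 504 and 421 counts to 698 and 634 (log2 fold change 0.44, standard error 0.11, edgeR adjusted p = 0.00305), a call that was lost without Ezh2 cKO replicate 1 (adjusted p = 0.0544, with a range of 0.000740 to 0.0544 over the alternatives). Of 10 endothelial markers 3 were higher and 1 lower, summing to 122 and 116 FPKM in Ezh2 f/f, against 137 and 119 in Ezh2 cKO with none at or under 3 counts in a group, and their part in the Igfbp7 difference was not tested.

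**Figure D4:**
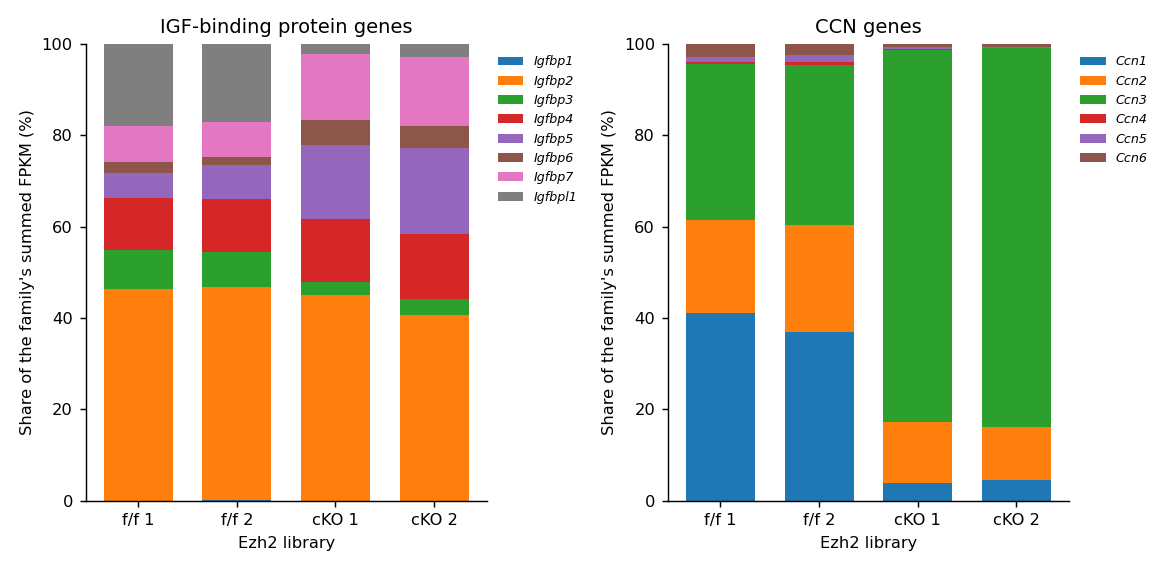
Share of the summed FPKM of 8 IGF-binding protein genes (left) and 6 CCN genes (right) taken by each gene, in percent, one bar per library. In Ezh2 cKO the Igfbpl1 block shrinks from 17.9% and 17.2% to 2.08% and 2.88%, the Igfbp5 block grows from 5.68% and 7.39% to 16.1% and 18.8%, and Ccn3 fills 81.5% and 82.9% of the CCN bar.

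The FPKM of the 8 IGF-binding protein genes summed to 295 and 280 in Ezh2 f/f, against 227 and 210 in Ezh2 cKO. Igfbp2 took 46.3% and 46.7% of it in Ezh2 f/f, against 45.1% and 40.8% in Ezh2 cKO, the largest share in every library. Igfbpl1 was next in Ezh2 f/f and Igfbp5 next in Ezh2 cKO. Igfbp3 took 8.61% and 7.77% in Ezh2 f/f, against 2.91% and 3.32% in Ezh2 cKO. Across the 10 members, the order of mean FPKM in Ezh2 f/f was Igfbp2, Igfbpl1, Igfbp4, Igfbp3, Igfbp5, Ccn1, Ccn3, Igf1r, Ccn2 and Igf1. The neighbours from Ccn1 to Ccn2 in that order overlapped in their libraries, and the others did not. In Ezh2 cKO the order was Igfbp2, Ccn3, Igfbp5, Igfbp4, Ccn2, Igfbp3, Igfbpl1, Ccn1, Igf1r and Igf1, and the overlapping neighbours were Ccn1 and Igf1r.

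The other genes of the pathways were tested, since their values did not choose the members. Of 80 further genes of the CCN and IGF pathways, 73 were tested, 17 rose and 27 fell at an edgeR adjusted p under 0.05, and 29 did not pass. That is 60.3% called, against 68.4% of all genes tested (34.7% higher and 33.6% lower). The median log2 fold change of the 73 was -0.14, and that of all genes tested was 0.02. The lists were compiled with earlier results of these libraries known.

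The proteases that cleave IGF-binding proteins and the inhibitors of those proteases had 4 tested genes of 5, of which 3 rose and 1 fell. Htra1, a secreted serine protease that cleaves binding proteins and matrix, rose from 374 and 309 counts to 2359 and 2102 (log2 fold change 2.62, standard error 0.11, edgeR adjusted p = 2.53e-10). Pappa2, a metalloprotease that cleaves IGFBP3 and IGFBP5, rose from 72 and 63 counts to 124 and 132 (log2 fold change 0.83, standard error 0.21, edgeR adjusted p = 0.00255). The stanniocalcins, which inhibit these metalloproteases, went in opposite directions: Stc2 fell from 209 and 161 counts to 112 and 67 (log2 fold change -1.14, standard error 0.22, edgeR adjusted p = 0.000465). Stc1 rose from 60 and 51 counts to 96 and 102 (log2 fold change 0.74, standard error 0.23, edgeR adjusted p = 0.00968), a call that DESeq2 did not make (adjusted p = 0.0929, with a range of 0.00615 to 0.0929 over the alternatives) and that was lost without Ezh2 cKO replicate 2 (adjusted p = 0.0676). Pappa, with at most 11 counts, was not tested.

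In the growth hormone pathway, which drives Igf1 in liver, 1 of 5 tested genes rose and 2 fell. The kinase Jak2 (log2 fold change -0.59, standard error 0.10, edgeR adjusted p = 0.000160) and the feedback inhibitor Socs2 (-0.69, standard error 0.11, edgeR adjusted p = 5.09e-05) fell. Stat5b rose (log2 fold change 0.42, standard error 0.17, edgeR adjusted p = 0.0403), but 6 of 10 alternatives lost the call, among them leaving out Ezh2 f/f replicate 1 (log2 fold change 0.21, adjusted p = 0.269), Ezh2 cKO replicate 1 (adjusted p = 0.0578) or Ezh2 cKO replicate 2 (adjusted p = 0.300), with a range of 0.000681 to 0.300. The growth hormone receptor Ghr (log2 fold change -0.27, edgeR adjusted p = 0.295) and Stat5a (-0.47, edgeR adjusted p = 0.211) did not pass the test.

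Downstream of the receptor, 5 of 25 signalling genes rose, 9 fell and 11 did not pass. Among the adaptors, Irs1 fell from 138 and 88 counts to 70 and 65 (log2 fold change -0.83, standard error 0.23, edgeR adjusted p = 0.00634), a value that was -0.54 (adjusted p = 0.0787) without Ezh2 f/f replicate 1 and not past the test without Ezh2 cKO replicate 2 (adjusted p = 0.0588), with a range of 3.67e-05 to 0.0787 over the alternatives. Irs2 did not pass (log2 fold change -0.20, standard error 0.11, edgeR adjusted p = 0.116). The kinase Akt1 fell from 12003 and 10694 counts to 5843 and 5386 (log2 fold change -1.11, standard error 0.08, edgeR adjusted p = 3.51e-08). Of the negative regulators, the receptor-binding adaptor Grb14 rose (log2 fold change 1.13, standard error 0.15, edgeR adjusted p = 1.21e-05) and the phosphatase Ptpn1 fell (-0.94, standard error 0.09, edgeR adjusted p = 6.85e-07). Tsc1, which restrains mTOR, fell (log2 fold change -0.68, standard error 0.10, edgeR adjusted p = 4.77e-05).

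**Figure D5:**
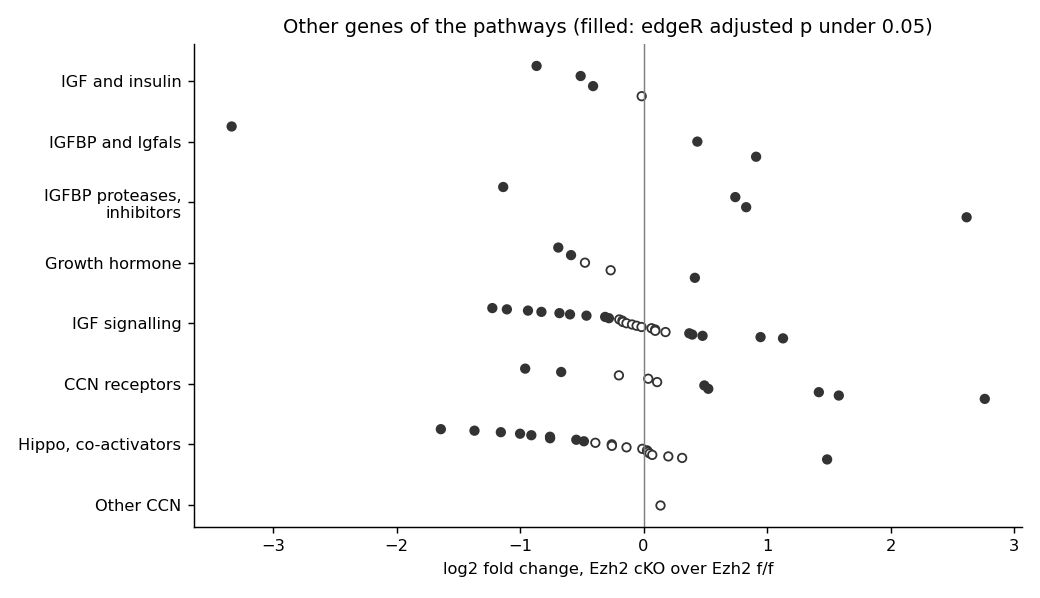
Log2 fold change of Ezh2 cKO over Ezh2 f/f for the 73 tested genes of the CCN and IGF pathways that are not members, one point per gene, grouped by list, with filled points at an edgeR adjusted p under 0.05. Igfals at -3.34 is the lowest point and Itgb3 at 2.76 the highest.

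Of 10 receptors that bind CCN proteins, 5 rose and 2 fell. The integrin subunits Itgb3 and Itgav, which pair to form a receptor of CCN proteins, rose from 41 and 27 counts to 278 and 215 (log2 fold change 2.76, standard error 0.23, edgeR adjusted p = 1.22e-07) and from 81 and 76 to 208 and 240 (log2 fold change 1.42, standard error 0.18, edgeR adjusted p = 9.73e-06). The heparan sulphate proteoglycan Sdc4 rose as well (log2 fold change 1.58, standard error 0.14, edgeR adjusted p = 2.77e-07). Notch1, which CCN3 binds, fell (log2 fold change -0.96, standard error 0.13, edgeR adjusted p = 1.71e-05), as did the WNT co-receptor Lrp6 (-0.67, standard error 0.10, edgeR adjusted p = 4.04e-05). Microglia express integrins too, and the part of the microglia markers given above in these values was not tested.

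In the Hippo pathway and among its co-activators, 1 of 21 tested genes rose, 9 fell and 11 did not pass. Neither co-activator passed the test: Yap1 was at 0.20 on the log2 scale (standard error 0.13, edgeR adjusted p = 0.201). Wwtr1, which codes for TAZ, was at 0.03 (standard error 0.14, edgeR adjusted p = 0.841). Their DNA-binding partner Tead2 fell from 589 and 538 counts to 247 and 218 (log2 fold change -1.37, standard error 0.13, edgeR adjusted p = 3.73e-07). The other TEAD genes, named after their values were seen, fell too. Tead1 had a log2 fold change of -0.48 (edgeR adjusted p = 0.00936), a call lost in limma (adjusted p = 0.134, with a range of 0.00474 to 0.134 over the alternatives) and without Ezh2 cKO replicate 1 (adjusted p = 0.0957). Tead4, with 24 and 29 counts in Ezh2 f/f, against 13 and 5 in Ezh2 cKO, had one of -1.64 (edgeR adjusted p = 0.00663), a call lost in DESeq2 (adjusted p = 0.0697, with a range of 0.00170 to 0.118 over the alternatives) and without Ezh2 cKO replicate 2 (adjusted p = 0.118). Tead3 lay between them (edgeR adjusted p = 0.000157). The kinase Lats1 (log2 fold change -0.91, standard error 0.11, edgeR adjusted p = 3.60e-06) and the scaffold Amotl2 (-1.16, standard error 0.13, edgeR adjusted p = 2.45e-06) fell, and the serum response factor co-activator Mrtfb rose from 679 and 511 counts to 1687 and 1855 (log2 fold change 1.49, standard error 0.11, edgeR adjusted p = 5.39e-08).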

How the data were processed

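RNA-seq libraries from cortical cells of P5 mice, isolated as astrocytes on GLAST beads, were compared, 2 of Ezh2 f/f and 2 of Ezh2 cKO. The authors deposited raw counts per gene and FPKM for 29224 genes. The deposited FPKM equal the counts divided by gene length and by the library's total count, without TMM scaling. The submitters' processing notes list Bowtie2 2.2.3, TopHat2 2.0.12, HTSeq 0.6.0 and the mm9 build, without saying what each was used for. Of 28799 genes matched in GENCODE M21 on GRCm38, 581 have the deposited coordinates. The build of the deposited coordinates was not settled, and they were not checked against mm9. Gene coordinates are printed as deposited and promoter windows are on GRCm38.p6, so their positions should not be compared with each other. The authors' own fold changes and p-values were not used, and 0 sample columns were left out.

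Counts were filtered with filterByExpr, TMM-normalized (factors 0.976, 0.967, 1.019 and 1.040) and tested with edgeR 4.0.16 quasi-likelihood (R 4.3.3), with Benjamini-Hochberg adjustment over all 16793 genes tested. CPM use TMM library sizes, and every fold change takes Ezh2 f/f as the base. Alternatives were DESeq2 1.42.0, its size factors in edgeR, no filter, a filter of 50 counts on average, limma 3.58.1 on log2(FPKM + 1) with FPKM of at least 1 in 2 libraries (a pseudocount of 0.1 also for the members), the replicate number as a block, and each library left out. Each test was tested on simulated data with known changes. Replicates of a group were not the same library: chi-square per degree of freedom between their counts was 8.92 and 5.68. A count of 3 was used as the floor, which covers counting error only. Counts of 2 libraries per group cannot give a permutation p under 0.05 for a single gene.

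The members and the gene lists were chosen with earlier results of these data known. Named genes were the members, every tested gene of the CCN, IGF, binding protein, protease and growth hormone lists, in the longer lists the genes with the smallest p (up to 3 higher and 3 lower), and Yap1, Wwtr1, Irs1 and Irs2. Tead1, Tead3 and Tead4 were added after their values were seen. Genes of the longer lists that this rule names but the text does not are not reported here. Markers of neurons, interneurons, oligodendrocyte precursors, oligodendrocytes, mural cells, erythrocytes and cycling cells were also fixed: 9 of 10, 4 of 10, 6 of 6, 7 of 7, 4 of 7, 3 of 5 and 0 of 6 tested genes were higher, and 1, 3, 0, 0, 1, 0 and 5 lower.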

Additional observations from a re-analysis of the deposited data

How the results depend on the processing

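Over the alternatives, the 10 members kept the sign of their difference, with 4 higher and 6 lower in Ezh2 cKO. Their groups did not overlap in CPM, and every alternative used the same libraries. A change of sign was thus hardly possible, and nothing is read from its absence. Under the 11 alternatives run for each member, 105 of their values moved by less than 1 SD of the replicates. The other 5 all came from limma: with a pseudocount of 1 the log2 fold change was 0.35 for Igf1, -1.66 for Igfbp3, -0.09 for Igfbp4 and -3.02 for Igfbpl1, and with 0.1 it was -0.09 for Igfbp4. Leaving out a library moves a group's mean by less than this SD by construction, so those settings could hardly count as moved. Ccn1 went from -1.15 to -0.68 without Ezh2 f/f replicate 1 and still stayed within it. A pseudocount by its construction pulls low values towards 0, and the deposited FPKM carry no TMM scaling. The calls over all genes ranged from 4677 to 5795 higher and from 4591 to 5747 lower, and those of the other pathway genes from 12 to 17 higher and from 21 to 30 lower. With each library left out, the pathway counts ranged from 12 to 17 higher and from 23 to 30 lower. Limma with a pseudocount of 1 also moved 13 log2 fold changes of members and called genes by over 1.5 times, all towards 0, among them Itgb3 (1.36), Itgav (0.64), Igf2 (-0.37) and Igf1r (-0.46).

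Among the named pathway genes, 5 values of genes that did not pass the test changed sign when a library was left out. Insrr ranged from -0.085 to 0.043 (0.035 without Ezh2 cKO replicate 1), Ccn6 from -0.24 to 0.64, and Wwtr1 from -0.058 to 0.12 (-0.034 without Ezh2 cKO replicate 2). In 19 values a called gene lost its call, and in 1, Irs2 without Ezh2 f/f replicate 2, a gene gained one; the cause was not tested. Same-numbered libraries share only a number: their deviations correlated with r = 0.130 over genes in 2 pairs. With the replicate block, 5795 genes were higher and 5599 lower, with 17 and 27 among the pathway genes and 4 members higher. Depth limits Igfbp1, Ins2, Ccn4, Ccn5 and Pappa, which were too low to test.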
